A study of Mus musculus with 48 samples.

Results

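Skeletal muscle of newborn wild-type (WT) mice was compared between the quadriceps (Quad), the group of knee extensors at the front of the thigh, and the gastrocnemius (Gastroc), the large muscle of the calf. The comparison used 12 of the 48 RNA-seq libraries of the series, 6 of Quad and 6 of Gastroc, and was made from the WT count columns of the deposited Quad and Gastroc tables, joined by gene ID. All 12 came from C57BL/6 mice at postnatal day 0 that carried both normal alleles of Myh3 (labelled MyH3+/+ and wild type), and the labels name no treatment. The remaining 36 libraries were from WT tibialis anterior (TA) and diaphragm (Dia) and from MyH3delta/delta (KO) mice of the same strain and age in all 4 muscles, since the series asked which mRNAs change when embryonic myosin heavy chain is lost during development. The KO libraries of Quad and Gastroc are used below only to repeat the same contrast in samples that share no library with it. RNA came from frozen muscles by a kit for fatty tissue, and polyadenylated RNA was sequenced in a stranded format. The labels do not give the sex, how many mice stand behind a sample, or whether a Quad and a Gastroc sample came from the same mouse, so muscles could not be paired and p-values measure the spread between these samples.

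Limb muscles form from migrating progenitors that are patterned by the connective tissue around them, and position along the limb is marked by homeobox genes. The genes of a Hox cluster are used in order, with those at the low-numbered end acting near the trunk and those at the high-numbered end acting farther out in the limb. At birth all limb muscles still contain embryonic and neonatal myosins, and the programmes of fast and slow fibres are only beginning to replace them. Fast fibres use their own forms of myosin, troponin and the calcium pump, while slow fibres use others that are shared with the heart.

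Library totals over the genes of each table were 12188785 to 20235751 counts in Quad (median 17646333) and 13448718 to 21986527 counts in Gastroc (median 15903108). The means differed by less than the spread (exact permutation test, two-sided, p = 0.639, where the smallest p possible is 0.00216). These totals cover unlike genes, since 4 genes of the Gastroc table were left out of the Quad table as over 50000 counts. Genes in both tables held 99.99% of the counts in each WT Quad library, but 92.1% to 93.7% in the WT Gastroc libraries. Of 16090 genes in the Quad table and 16097 in the Gastroc table, 15736 were in both and 14641 passed a filter on low counts. The tissue was checked against its markers. The 10 measured genes of a skeletal muscle list summed, in CPM (counts per 1000000 counts), to 69763 to 86715 CPM in Quad (median 84090.5) and 39417 to 53768 CPM in Gastroc (median 49104). Mylpf and Acta1 of that list were in 1 table only and are not in the sum. The hindlimb factor Pitx1 lay between 11.8 and 21.2 CPM in Quad (median 15.6) and between 11.6 and 19.6 CPM in Gastroc (median 15.9), so it was present in all 12 libraries, and its log2 change was 0.06 ± 0.16, adjusted p = 0.876. Xist, the transcript of the inactive X chromosome, was at 0.697 CPM in WT Quad column 0 and at 0.0951 CPM in WT Gastroc column 1, against 619 to 796 CPM in the other 10. Ddx3y, a Y-linked gene, was at 85.9 CPM in WT Quad column 0 and at 74.0 CPM in WT Gastroc column 1. A first principal component over 500 variable genes held 45.6% of the variance and separated the muscles, and a second with 20.6% had WT Quad column 1 and WT Gastroc column 4 at its low end.

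The muscles differed at many genes, with Alx4, Ankrd2 and Emx2 among those furthest up in Quad and Nrn1, Hoxa13 and Cxcl9 among those furthest down. In the edgeR quasi-likelihood test with Benjamini-Hochberg adjustment, 2068 of 14641 genes had an adjusted p under 0.05 (14.1%). In Quad 1223 of them were higher (8.35%) and 845 lower (5.77%). Of the genes past the test, 153 were at least 2-fold higher in Quad (1.05% of all genes) and 123 at least 2-fold lower (0.84%). For 1101 genes (7.52%) the 6 Quad values and the 6 Gastroc values did not overlap. The median log2 change over all genes tested was -0.02, and every fold change below is log2 of Quad over Gastroc with its standard error. Levels are CPM scaled by TMM factors, given as lowest, median and highest library. Without the 2 libraries with Y-linked counts the number past the test was 1642, and without WT Quad column 1 and WT Gastroc column 4 it was 1842.

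Hox genes separated the muscles along the clusters. Of 31 genes of the Hox clusters reported here, among them 2 antisense genes and Hotair, 14 were higher in Quad and 10 lower (77.4% past the test, against 14.1% of all genes), and 21 had values that did not overlap. Over all genes, values did not overlap for 4.69% that were higher in Quad and for 2.83% that were lower. In HoxA, the 7 genes Hoxa2 to Hoxa9 were higher in Quad, and Hoxa10, Hoxa11, its antisense partner Hoxa11os and Hoxa13 were lower. In HoxC, Hoxc4 to Hoxc10 were higher and Hoxc11 and Hotair lower, while Hoxd3, its antisense partner Hoxd3os1, Hoxd8 and Hoxd9 were all lower. HoxB was nearly flat, with 1 of 8 genes past the test (12.5%, near the 14.1% of all genes).

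Hoxd9, a homeobox factor of the proximal limb, had 1.56 CPM in the lowest, 2.64 in the median and 3.18 in the highest Quad library, against 11.5, 13.7 and 16.6 CPM in Gastroc. The groups were fully separate, and the log2 change was -2.41 ± 0.15, adjusted p = 1.26e-07. In mm10 it spans bases 74697680 to 74700208 of the plus strand of chromosome 2. Its promoter is shown because Hoxd9 had the smallest p-value of the HoxD genes. The 250 bases before the RefSeq start site (GRCm38.p6, chr2:74697513-74697762, plus strand), with each CG pair in capitals, read 5′ to 3′ as follows.
Hoxd9: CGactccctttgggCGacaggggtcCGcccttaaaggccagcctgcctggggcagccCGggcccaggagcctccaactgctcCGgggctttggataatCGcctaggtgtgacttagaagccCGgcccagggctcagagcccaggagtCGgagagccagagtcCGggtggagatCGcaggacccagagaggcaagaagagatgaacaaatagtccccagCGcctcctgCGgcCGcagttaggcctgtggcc
The window held 13 CG pairs, against a median of 6 over 32851 RefSeq promoters, and none of the TATAAA motif, which 12.4% of them hold on either strand. The RefSeq start lay 83 bases from the gene start in the deposited table.

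Hoxa11, which is required for the lower leg and forearm skeleton, ranged over 2.18 to 3.83 CPM in Quad (median 2.68) and 11.0 to 16.4 CPM in Gastroc (median 12.3). No Quad library reached the lowest Gastroc library (log2 change -2.19 ± 0.14, adjusted p = 2.20e-07). Its antisense partner Hoxa11os lay between 1.39 and 2.47 CPM in Quad (median 1.98) and between 7.21 and 10.5 CPM in Gastroc (median 8.67), with a log2 change of -2.12 ± 0.15, adjusted p = 5.21e-07, and since both genes overlap and strand-aware counting is not stated in the sources used here, their reads cannot be told apart. Hoxa13, the most distal gene of the cluster, had 0.18 CPM in the lowest, 0.238 in the median and 0.785 in the highest Quad library, against 1.86, 1.97 and 2.28 CPM in Gastroc (log2 change -2.62 ± 0.27, adjusted p = 1.39e-05). These levels are low, but the groups did not overlap.

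Hoxc11 ranged over 3.97 to 6.31 CPM in Quad (median 4.99) and 15.5 to 20.4 CPM in Gastroc (median 18.0), again with no overlap (log2 change -1.83 ± 0.12, adjusted p = 1.26e-07). Hotair, a long noncoding RNA gene next to Hoxc11, was lower with -1.65 ± 0.26, adjusted p = 5.47e-04, and 1 Gastroc library at 1.64 CPM overlapped the Quad range. Hoxd8 had a log2 change of -1.41 ± 0.19, adjusted p = 1.50e-04, and the groups did not overlap. Hoxd3, near the other end of the cluster, had -0.64 ± 0.18, adjusted p = 0.0256 with overlapping groups, and its call was lost in 5 of the 12 fits that each left out 1 library, with the highest adjusted p, 0.0588, without WT Gastroc column 2.

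Toward the low-numbered end the direction turned. Hoxc6, a factor of the thoracic level of the body, lay between 6.02 and 9.26 CPM in Quad (median 6.94) and between 1.64 and 3.38 CPM in Gastroc (median 2.68). All Quad values lay above all Gastroc values (log2 change 1.5 ± 0.18, adjusted p = 7.20e-05). Hoxc8 had a log2 change of 1.38 ± 0.14, adjusted p = 1.27e-05 and Hoxc10, a hindlimb gene, of 0.64 ± 0.08, adjusted p = 1.39e-04, both without overlap. Hoxa5 had 5.32 CPM in the lowest, 6.52 in the median and 7.42 in the highest Quad library, against 1.82, 2.62 and 3.23 CPM in Gastroc, with the groups apart (log2 change 1.33 ± 0.16, adjusted p = 6.50e-05). Hoxa7 (1.03 ± 0.13), Hoxa6 (1.30 ± 0.19) and Hoxa3 (0.99 ± 0.18) were higher in Quad without overlap, while Hoxa10 was lower by a small amount (-0.34 ± 0.08), a call that was lost when all 24 WT libraries shared 1 fit (adjusted p = 0.0514). In HoxB, Hoxb2 was the gene that passed (1.33 ± 0.26, adjusted p = 0.00281), and the other 7 had log2 changes between 0.03 (Hoxb5) and 0.65 (Hoxb3). The plot of Hox genes in cluster order shows the turn between Hoxa9 and Hoxa10 and between Hoxc10 and Hoxc11.

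**Figure D1:**
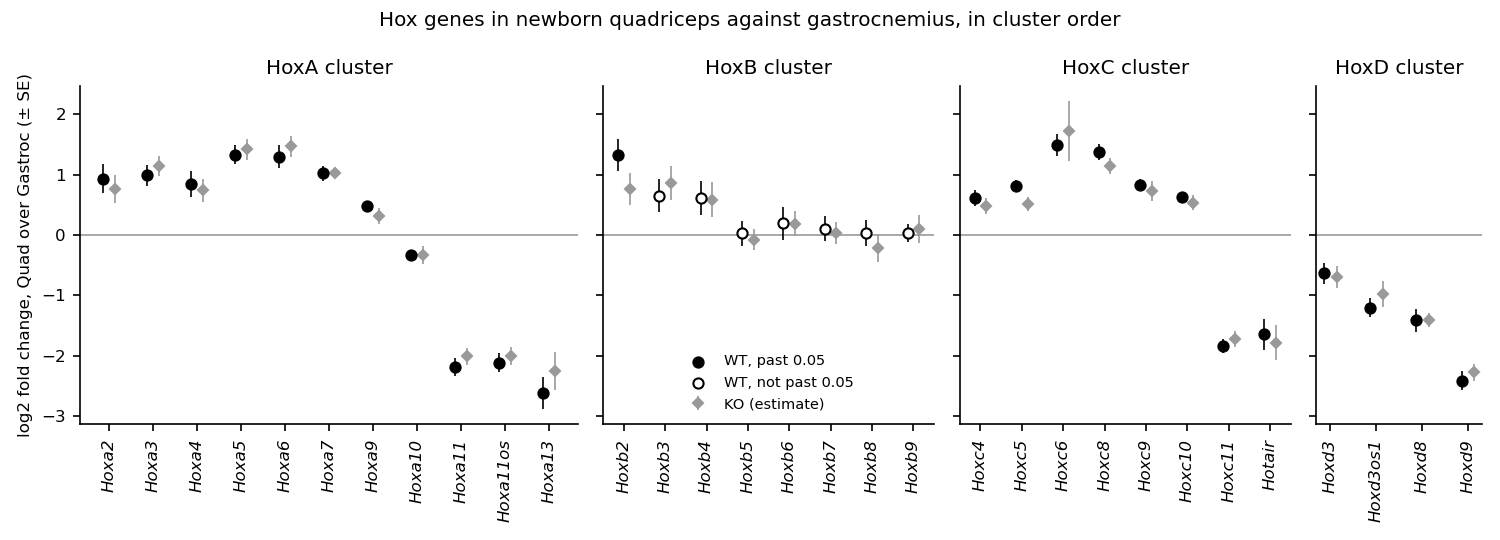
Log2 fold change of Quad over Gastroc (y axis, ± SE) of 31 Hox genes in cluster order (x axis), in 4 panels by cluster. Filled circles are WT changes with an adjusted p under 0.05, open circles WT changes that did not pass, and grey diamonds the estimates from the KO libraries. Changes turn from positive to negative between Hoxa9 and Hoxa10 and between Hoxc10 and Hoxc11.

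Further genes of limb position were listed for 1 muscle only, because the authors left out of each table the genes with under 10 counts in its libraries. The counts of the genes left out are not given. Every gene that was kept reached at least 10 counts in some library. A gene left out was therefore taken to have at most 9 counts in any library of the other muscle. That is a limit of 0.738 CPM in the shallowest WT Quad library and 0.669 CPM in the shallowest WT Gastroc library. These levels are CPM of the whole table's total with no TMM factor. Hoxd10 was in the Gastroc table at 4.94 to 7.36 CPM (median 5.62), Hoxd11 at 2.37 to 3.90 CPM (median 3.22), Hand2, a posterior limb bud factor, at 5.67 to 7.14 CPM (median 6.10), and Isl1, which starts hindlimb outgrowth and also marks motor neurons, at 4.08 to 5.50 CPM (median 4.33). Dct, an enzyme of pigment cells, was there at 2.35 to 4.61 CPM (median 3.59). All 6 Gastroc values of each lay above the limit for Quad. Tbx5, which is known for the forelimb and heart, was in the Quad table at 3.26 to 6.33 CPM (median 3.90), and Evx2, a homeobox gene beside HoxD, at 1.39 to 2.43 CPM (median 2.10). All 6 Quad values of both lay above the limit for Gastroc. No fold or test was computed for these genes. Hoxd10 and Hoxd11 overlap in the deposited coordinates, so a read in the shared part may count for either.

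Beyond Hox, a list of 86 limb field and position factors had 61 members tested, with 7 higher in Quad (11.5%, near the 8.35% of all genes) and 19 lower (31.1%, against 5.77% of all genes). The list's median log2 change was -0.20, against -0.02 over all genes. Alx4, an aristaless-type homeobox factor of the anterior limb bud, ranged over 12.4 to 18.0 CPM in Quad (median 16.5) and 1.19 to 2.55 CPM in Gastroc (median 1.71). The ranges were far apart, and the log2 change was 3.09 ± 0.17, adjusted p = 7.49e-08. Emx2, a homeobox factor needed for the shoulder blade, lay between 4.14 and 6.72 CPM in Quad (median 6.10) and between 0.586 and 1.20 CPM in Gastroc (median 0.714), without overlap (log2 change 2.82 ± 0.20, adjusted p = 4.70e-07). The annotation has an antisense gene, Emx2os, that overlaps the start of Emx2, so reads there may be mixed. Lmx1b, which sets the dorsal side of the limb, had 6.28 CPM in the lowest, 6.95 in the median and 8.93 in the highest Quad library, against 1.57, 2.18 and 2.38 CPM in Gastroc (log2 change 1.87 ± 0.15, adjusted p = 1.16e-06). No Gastroc library came near the lowest Quad library. Tbx1, a T-box factor known for head muscle and outside this list, ranged over 17.9 to 28.0 CPM in Quad (median 25) and 2.99 to 5.94 CPM in Gastroc (median 4.52) (log2 change 2.44 ± 0.15, adjusted p = 1.26e-07). Meis1, a proximal limb factor, was also higher in Quad (0.63 ± 0.09, adjusted p = 3.07e-04).

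On the other side, Barx2, a homeobox factor of muscle progenitors, lay between 3.61 and 6.57 CPM in Quad (median 5.37) and between 10.6 and 17.4 CPM in Gastroc (median 14.9). All Quad values were below all Gastroc values (log2 change -1.5 ± 0.15, adjusted p = 1.39e-05). Zic1 (-1.27 ± 0.24), Foxc2 (-1.12 ± 0.24) and Tshz1 (-0.72 ± 0.08) were lower in Quad without overlap. Nr2f1 (-1.0 ± 0.18) and Foxd1 (-1.27 ± 0.30) were lower with overlapping groups. Tbx4, the T-box factor of the hindlimb, had 16.3 CPM in the lowest, 18.5 in the median and 22.9 in the highest Quad library, against 19.1, 25.4 and 27.5 CPM in Gastroc, and its log2 change of -0.33 ± 0.11, adjusted p = 0.0623 did not pass. The groups overlapped, as the plot of position genes by library shows.

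**Figure D2:**
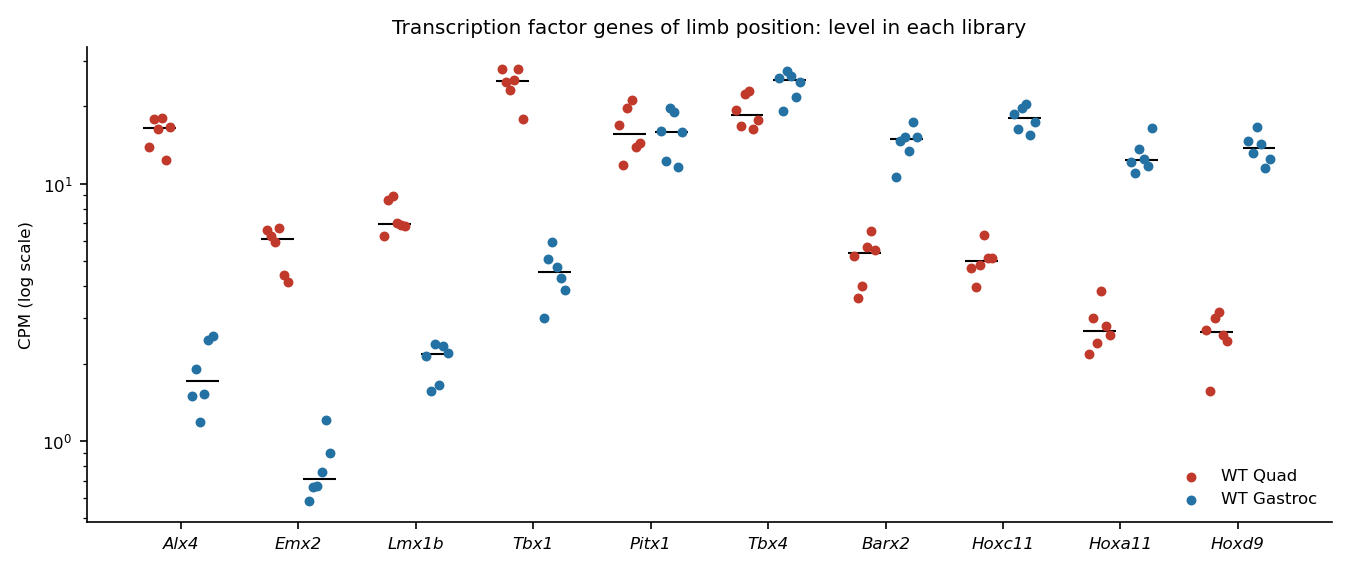
Level in CPM (log scale, y axis) of 10 position genes (x axis) in each WT library, with Quad in red to the left of Gastroc in blue and black bars at the medians. Alx4, Emx2, Lmx1b and Tbx1 lie higher in Quad, Barx2, Hoxc11, Hoxa11 and Hoxd9 lower, and Pitx1 and Tbx4 overlap.

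Fast fibre genes were higher in Quad throughout. All 19 measured genes of the fast fibre list passed the test in that direction (8.35% of all genes did). For 16 of them the groups did not overlap, while 4.69% of all genes were higher in Quad without overlap. The list has 20 genes, but Mylpf was in 1 table only, so it was neither tested nor part of the sum. The list's median log2 change was 0.78, and its summed level was 88119 to 111209 CPM in Quad (median 105093) and 44998 to 65955 CPM in Gastroc (median 58908). In whole muscle, fewer cells of a type and less RNA per cell cannot be told apart. The summed level of the skeletal muscle list (above), which shares members with this one, also moved with the groups, and its part in the fibre and metabolic results was not tested. Pvalb, the calcium buffer parvalbumin of fast fibres, ranged over 108 to 284 CPM in Quad (median 136) and 15.8 to 42.7 CPM in Gastroc (median 18.3). Its lowest Quad library was above its highest Gastroc library (log2 change 2.78 ± 0.30, adjusted p = 2.05e-05). Myh4, the myosin heavy chain of the fastest fibres (type 2B), lay between 53.1 and 118 CPM in Quad (median 86.3) and between 9.10 and 21.6 CPM in Gastroc (median 18.3), again apart (log2 change 2.37 ± 0.26, adjusted p = 3.33e-05). Mybpc2, fast myosin-binding protein C, had 488 CPM in the lowest, 669 in the median and 805 in the highest Quad library, against 67.3, 113 and 186 CPM in Gastroc (log2 change 2.42 ± 0.21, adjusted p = 2.55e-06). Its lowest Quad library stood above its highest Gastroc library.

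Actn3, the fast fibre Z-disc actinin, had a log2 change of 1.63 ± 0.20, adjusted p = 7.60e-05, and Myh2, the myosin of type 2A fibres, of 1.27 ± 0.24, adjusted p = 0.00178. Myh8, the neonatal myosin, is by far the most abundant of these transcripts in counts and ranged over 26414 to 38184 CPM in Quad (median 34954) and 11269 to 18797 CPM in Gastroc (median 16925). The groups did not overlap (log2 change 1.06 ± 0.13, adjusted p = 9.19e-05). Myh1 (type 2X) had 1.0 ± 0.26, adjusted p = 0.0162 with overlapping groups, and its adjusted p was 0.0544 without the 2 libraries with Y-linked counts. The remaining changes on the list ran down to 0.44 for Pfkm, the phosphofructokinase of muscle. The Myh genes of this cluster are close copies, so reads that match several of them could be shared between them in the counts.

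The promoters of Pvalb and Myh4 are shown because these were fast fibre genes with large log2 changes. That of Ankrd2 is shown because it had the largest change among the sarcomere structure genes named below. Each is the 250 bases before the RefSeq start (GRCm38.p6), 5′ to 3′ on the gene's strand, with CG pairs in capitals. Pvalb is at chr15:78206401-78206650 (minus strand), Myh4 at chr11:67237562-67237811 (plus) and Ankrd2 at chr19:42035777-42036026 (plus).
Pvalb: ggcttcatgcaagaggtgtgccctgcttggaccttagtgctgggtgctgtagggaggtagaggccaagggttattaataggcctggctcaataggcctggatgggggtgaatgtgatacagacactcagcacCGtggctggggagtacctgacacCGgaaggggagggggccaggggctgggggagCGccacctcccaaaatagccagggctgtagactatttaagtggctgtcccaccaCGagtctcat
Myh4: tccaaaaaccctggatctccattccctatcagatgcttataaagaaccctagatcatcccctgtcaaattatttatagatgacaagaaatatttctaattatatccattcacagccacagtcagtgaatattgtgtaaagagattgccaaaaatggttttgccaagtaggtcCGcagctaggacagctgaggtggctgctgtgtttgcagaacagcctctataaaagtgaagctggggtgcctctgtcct
Ankrd2: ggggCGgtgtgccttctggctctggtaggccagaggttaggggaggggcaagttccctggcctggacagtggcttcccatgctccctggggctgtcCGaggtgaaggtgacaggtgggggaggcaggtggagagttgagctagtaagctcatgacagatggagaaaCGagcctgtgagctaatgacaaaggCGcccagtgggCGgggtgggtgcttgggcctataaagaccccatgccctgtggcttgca
Pvalb has 4 CG pairs in this window, Myh4 has 1 and Ankrd2 has 5. TATAAA, searched on both strands, was found 3 times in the Myh4 window, with the nearest match from -31 to -26 bases, and once in the Ankrd2 window from -29 to -24, and it was not found in the Pvalb window. CAGCTG, a form of the E-box that myogenic factors bind, is in the Myh4 window from -67 to -62, and 13% of all promoters hold it. The Myh4 window also holds a CArG box, the serum response factor site, from -104 to -95, a motif in 1.47% of all promoters. The RefSeq start lay 0 bases from the deposited gene start for Pvalb, 217 for Myh4 and 11 for Ankrd2. A match is a description of the letters and was not tested for a role here.

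Genes of sarcomere structure followed the same direction. Of 26 tested, 22 were higher in Quad (84.6%, against 8.35% of all genes) and 0 lower, with a median log2 change of 0.59. Ankrd2, an ankyrin repeat protein that responds to stretch, lay between 55.0 and 171 CPM in Quad (median 127) and between 9.58 and 25.9 CPM in Gastroc (median 13.4). The groups did not overlap (log2 change 3.01 ± 0.28, adjusted p = 7.75e-06). Xirp2, an actin-binding protein of the intercalated disc and myotendinous junction, had 176 CPM in the lowest, 212 in the median and 265 in the highest Quad library, against 44.1, 59.6 and 63.6 CPM in Gastroc (log2 change 1.88 ± 0.11, adjusted p = 1.13e-07). Hspb7, a small heat shock protein of muscle (1.02 ± 0.08), and Nrap, an anchor of new myofibrils (0.90 ± 0.13), were higher as well. Desmin (Des, 0.62 ± 0.09), alpha-actinin 2 (Actn2, 0.61 ± 0.09) and nebulin (Neb, 0.50 ± 0.07), which all fibres use, were also higher.

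Slow fibre genes did not move as one. Of 16 tested, 5 were higher in Quad (31.2%, against 8.35% of all genes), 6 lower (37.5%, against 5.77%) and 5 did not pass, with a median of 0.04. Myh7b, a slow-type myosin heavy chain that also holds a microRNA, ranged over 26.2 to 45.6 CPM in Quad (median 31.9) and 56.4 to 76.0 CPM in Gastroc (median 58.5). The groups did not overlap (log2 change -0.89 ± 0.13, adjusted p = 2.46e-04), and the adjusted p was 0.0547 when all 48 libraries shared 1 fit. Myl3, the slow essential light chain, lay between 93.2 and 175 CPM in Quad (median 149) and between 205 and 236 CPM in Gastroc (median 208) (log2 change -0.56 ± 0.11, adjusted p = 0.00328). Slow troponin I (Tnni1) was lower without overlap (-0.40 ± 0.08, adjusted p = 0.00392), and slow troponins C (Tnnc1, -0.31 ± 0.07) and T (Tnnt1, -0.29 ± 0.07) were lower with overlapping groups. Myl6b, another essential light chain, was lower too (-0.64 ± 0.09, adjusted p = 2.46e-04).

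Myl2, the slow regulatory light chain, went the other way and had 185 CPM in the lowest, 245 in the median and 336 in the highest Quad library, against 96.0, 154 and 188 CPM in Gastroc. The groups overlapped by 1 Quad library below the highest Gastroc value (log2 change 0.75 ± 0.16, adjusted p = 0.00583). Mb, the oxygen store myoglobin, was higher in Quad without overlap (0.77 ± 0.12, adjusted p = 4.18e-04), as was Mybpc1, slow myosin-binding protein C (0.50 ± 0.07, adjusted p = 1.90e-04). Myh7, the main slow myosin heavy chain, ranged over 632 to 1007 CPM in Quad (median 825) and 633 to 856 CPM in Gastroc (median 704), and its log2 change of 0.17 ± 0.11, adjusted p = 0.355 did not pass.

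Among 16 developmental genes, 4 were higher in Quad (25.0%, against 8.35% of all genes) and 3 lower (18.8%, against 5.77%). The list holds sarcomere isoforms but also Ankrd1, Cdh15, Chrng and Ncam1. Myh8 is on this list and on the fast fibre list, so the counts of these lists are not separate. Myh3, the embryonic myosin that the series is about, lay between 4090.0 and 5734 CPM in Quad (median 4892) and between 3771 and 5035 CPM in Gastroc (median 4583). The ranges overlapped and the log2 change was 0.13 ± 0.10, adjusted p = 0.412, so no difference was detected and the gene itself, on chromosome 11 from 67078300 to 67102291 (mm10, plus strand), was among the abundant transcripts of both muscles. Chrng, the fetal subunit of the acetylcholine receptor, had 87.9 CPM in the lowest, 88.8 in the median and 106 in the highest Quad library, against 139, 155 and 197 CPM in Gastroc. The groups did not overlap (log2 change -0.81 ± 0.09, adjusted p = 3.11e-05). Embryonic light chain Myl4 (-0.34 ± 0.06) and cardiac-type troponin T (Tnnt2, -0.33 ± 0.06) were also lower in Quad without overlap. Myh13, a myosin best known from eye muscles, was higher (1.21 ± 0.19, adjusted p = 5.03e-04).

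**Figure D3:**
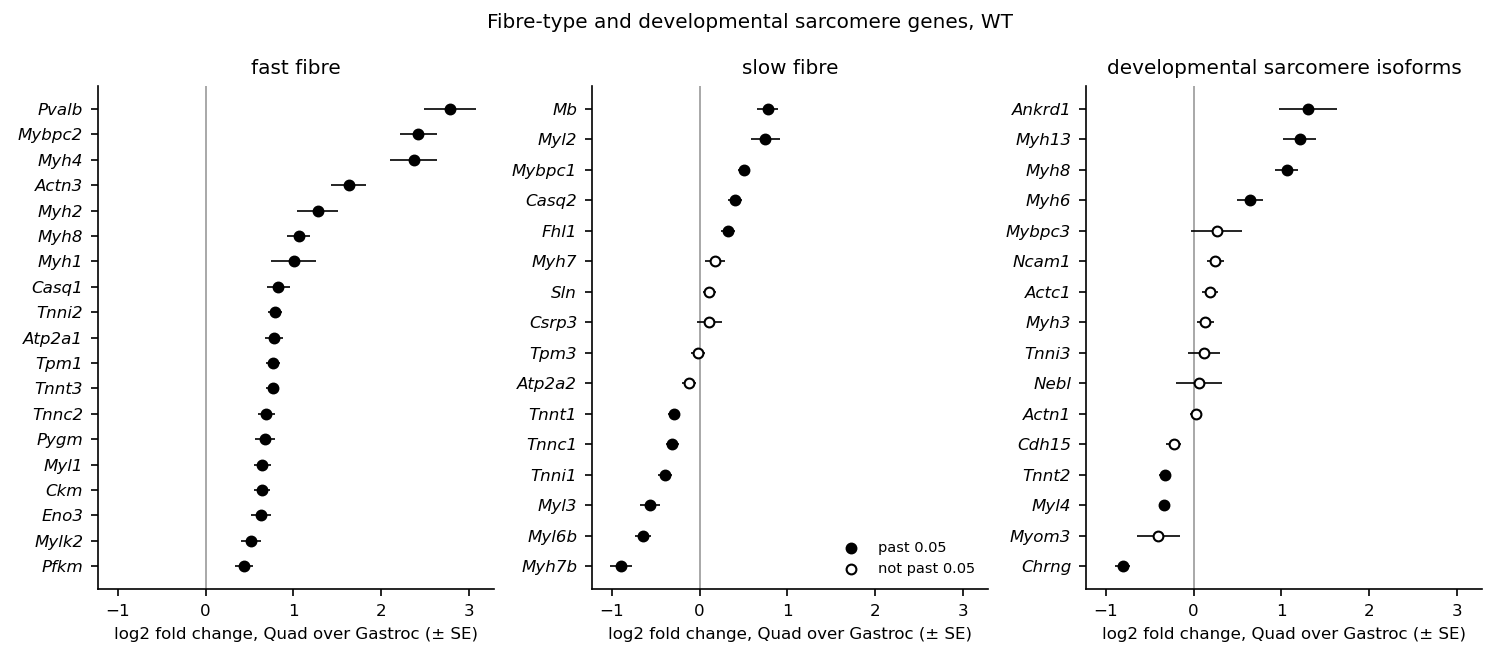
Log2 fold change of Quad over Gastroc in WT (x axis, ± SE) of the measured genes of 3 lists (y axis). Filled circles have an adjusted p under 0.05. All 19 fast fibre genes lie above 0, while slow fibre and developmental genes fall on both sides.

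Levels were also divided within each library by the sum of Actn2, Des, Neb and Ttn, 4 structural genes of all fibres. That sum was 15814 to 18774 CPM in Quad and 10829 to 13494 CPM in Gastroc, so the division by itself lowers every gene in Quad, and 46.9% of all genes lay below in all Quad libraries while 0.342% lay above. Of 19 fast fibre genes 6 lay above in all Quad libraries and 13 overlapped. Pvalb, Mybpc2, Myh4, Actn3, Myh8 and Tnni2 were the 6. For Pvalb the values were 5.84 to 17.9 in Quad and 1.32 to 3.81 in Gastroc per 1000 of the sum. Of 16 slow fibre genes 10 lay below in all Quad libraries and 6 overlapped. Of 16 developmental genes 5 lay below, 10 overlapped and 1 lay above, which was again Myh8. This scale was chosen after the values were seen and was not tested.

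Most of the energy metabolism genes on 2 lists were higher in Quad. Of 24 nuclear genes of oxidative phosphorylation and fuel use, 22 were higher (91.7%, against 8.35% of all genes) and 0 lower (median log2 change 0.54). Cox7a1, the heart and muscle form of a cytochrome oxidase subunit, ranged over 44.0 to 60.7 CPM in Quad (median 58.2) and 16.4 to 29.0 CPM in Gastroc (median 20.8). The groups did not overlap (log2 change 1.38 ± 0.12, adjusted p = 3.27e-06). Citrate synthase (Cs, 0.69 ± 0.07), Cox5a (0.70 ± 0.07) and Sdhb of complex II (0.67 ± 0.07) were higher without overlap. Of 21 glycolysis and glycogen genes 15 were higher (71.4%, against 8.35% of all genes) and 0 lower (median 0.63). Gpd1, which carries reducing power from glycolysis, lay between 147 and 236 CPM in Quad (median 205) and between 39.1 and 85.2 CPM in Gastroc (median 65.1) (log2 change 1.62 ± 0.16, adjusted p = 1.39e-05). Gbe1, the glycogen branching enzyme (0.81 ± 0.08), and Phkg1, a phosphorylase kinase subunit (1.02 ± 0.16), were also higher. Of 19 calcium handling genes 11 were higher (57.9%, against 8.35% of all genes) and 0 lower. Among them were the fast calcium pump Atp2a1 (0.78 ± 0.10) and its store protein Casq1 (0.83 ± 0.13). Both are also on the fast fibre list, so the counts of the lists are not separate.

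Of 19 nerve and Schwann cell genes 10 were lower in Quad (52.6%, against 5.77% of all genes), 0 were higher and 9 did not pass, and the median log2 change was -0.58. Nrn1, neuritin, a neurite growth protein, had 0.481 CPM in the lowest, 0.855 in the median and 1.30 in the highest Quad library, against 5.31, 7.03 and 8.35 CPM in Gastroc. The groups were far apart (log2 change -2.94 ± 0.22, adjusted p = 6.83e-07). Neurofilament light chain Nefl (-1.95 ± 0.34) and medium chain Nefm (-1.68 ± 0.23) were lower without overlap. Sox10, the master factor of Schwann cells, ranged over 6.68 to 10.8 CPM in Quad (median 9.36) and 12.1 to 27.5 CPM in Gastroc (median 17.4) (log2 change -1.08 ± 0.20, adjusted p = 0.00205). The list's summed level overlapped between the muscles, at 523 to 1076 CPM in Quad (median 750.3) and 581 to 1309 CPM in Gastroc (median 1037). Its part in the changes of single genes was not tested.

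Of 50 axon guidance and adhesion genes 16 were lower in Quad (32.0%, against 5.77% of all genes) and 3 higher (6.00%, near the 8.35% of all genes), with a median of -0.26. Ntrk3, the receptor of neurotrophin 3, lay between 2.00 and 3.00 CPM in Quad (median 2.54) and between 6.96 and 10.1 CPM in Gastroc (median 8.99). All Quad values were below all Gastroc values (log2 change -1.78 ± 0.14, adjusted p = 1.07e-06). Pcdh10, a protocadherin (-1.81 ± 0.17), Nrg1, the axonal signal to Schwann cells and muscle spindles (-1.35 ± 0.26), Robo2 (-0.86 ± 0.12) and its ligand Slit2 (-0.81 ± 0.13) were lower without overlap. At the neuromuscular junction 4 of 21 genes were lower (19%, against 5.77% of all genes) and 2 higher (9.52%, near the 8.35% of all genes). Without the 2 libraries with Y-linked counts 2 were lower and 1 higher. The count of higher genes was 1 without any one of WT Gastroc column 3, 4 or 5 or WT Quad column 0, 2, 3 or 5. Beside Chrng, the collagen tail of acetylcholinesterase (Colq) was lower (-0.53 ± 0.09, adjusted p = 8.54e-04, but 0.171 when all 48 libraries shared 1 fit), and the sodium channel Scn4a was higher (0.64 ± 0.16, adjusted p = 0.0124).

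In a list of Wnt, BMP and retinoid signalling 5 of 36 genes were higher in Quad (13.9%, against 8.35% of all genes) and 10 lower (27.8%, against 5.77%). Without WT Gastroc column 2, and without the pair of WT Quad column 1 and WT Gastroc column 4, 3 were higher. Gdf6, a BMP ligand that sets joints in the limb, had 0.541 CPM in the lowest, 0.741 in the median and 1.22 in the highest Quad library, against 2.21, 3.70 and 4.42 CPM in Gastroc. All Quad values were the lower ones (log2 change -2.19 ± 0.21, adjusted p = 1.10e-05). Bmp5, another ligand of that family, ranged over 23.6 to 32.6 CPM in Quad (median 27.9) and 8.03 to 11.8 CPM in Gastroc (median 9.43) (log2 change 1.54 ± 0.11, adjusted p = 4.70e-07). It was separate in the other direction. Bmp7 was lower (-0.81 ± 0.14), as was the retinoic acid synthase Aldh1a2 (-0.59 ± 0.11), while the retinaldehyde reductase Dhrs3 was higher (0.47 ± 0.12).

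Markers of other cell types were counted in the same way. Smooth muscle and pericyte genes had 5 of 14 lower in Quad (35.7%, against 5.77% of all genes), among them Myh11 (-0.65 ± 0.08), Tagln (-0.65 ± 0.08) and Actg2 (-1.22 ± 0.19), and 1 higher, Des, which striated fibres also use. With Des, the list summed to 5203 to 6185 CPM in Quad (median 6024) and 3900.3 to 4806 CPM in Gastroc (median 4462), so the sum was higher in Quad while those 5 genes were lower. The calls of Myh11, Tagln and Actg2 were lost when all 24 WT libraries shared 1 fit, with an adjusted p of 0.455 for Myh11, 0.237 for Tagln and 0.314 for Actg2. Fibroblast and matrix genes had 6 of 28 lower (21.4%, against 5.77% of all genes), such as Fbln5 (-0.58 ± 0.07), and 1 higher (3.57%, against 8.35%), Lum (0.54 ± 0.08). The count of lower genes was between 4 and 8 (WT Gastroc column 1) when 1 library was left out. With edgeR 0 of 15 macrophage, 0 of 6 erythroid and 0 of 7 liver genes passed. DESeq2 called 0 macrophage, 2 erythroid and 0 liver genes, and an unadjusted p under 0.05 was seen for 1 macrophage, 5 erythroid and 0 liver genes. Leaving out 1 library gave up to 1 macrophage gene (without WT Gastroc column 1 or WT Quad column 3) and up to 2 erythroid genes (without WT Gastroc column 2 or 4 or WT Quad column 5).

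Cartilage and bone genes had 8 of 18 higher in Quad (44.4%, against 8.35% of all genes) and 1 lower (5.56%, near the 5.77% of all genes). But their summed level ran over 309 to 2093 CPM in Quad (median 1424) and 156 to 983 CPM in Gastroc (median 449), so the ranges overlapped. Ucma, a growth plate protein, lay between 0.602 and 16.2 CPM in Quad (median 11.7) and between 0 and 4.17 CPM in Gastroc (median 0.516) (log2 change 3.42 ± 0.75, adjusted p = 0.00612). Without the 2 libraries with Y-linked counts 2 genes of the list were higher. Leaving out WT Gastroc column 0 or column 2 gave 5, and leaving out WT Gastroc column 3 or WT Quad column 1 gave 12. Of 20 proliferation genes 4 were lower in Quad, a larger share than the 5.77% of all genes, and 0 were higher. Without the 2 libraries with Y-linked counts 1 was lower. Leaving out single libraries gave between 1 (such as WT Quad column 0 or WT Gastroc column 5) and 6 (WT Quad column 4). Immediate early genes, which respond to handling within minutes, had 8 of 25 higher (32.0%, against 8.35% of all genes) and 0 lower. The count of higher genes was between 6 and 10 when 1 library was left out. It was 6 without the 2 libraries with Y-linked counts, and 6 with all 48 libraries in 1 fit. Egr1 was at 0.99 ± 0.22, adjusted p = 0.00717 and Atf3 at 1.31 ± 0.30, adjusted p = 0.00801. Egr1 had an adjusted p of 0.0584 when all 48 libraries shared 1 fit. The groups of both genes overlapped.

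**Figure D4:**
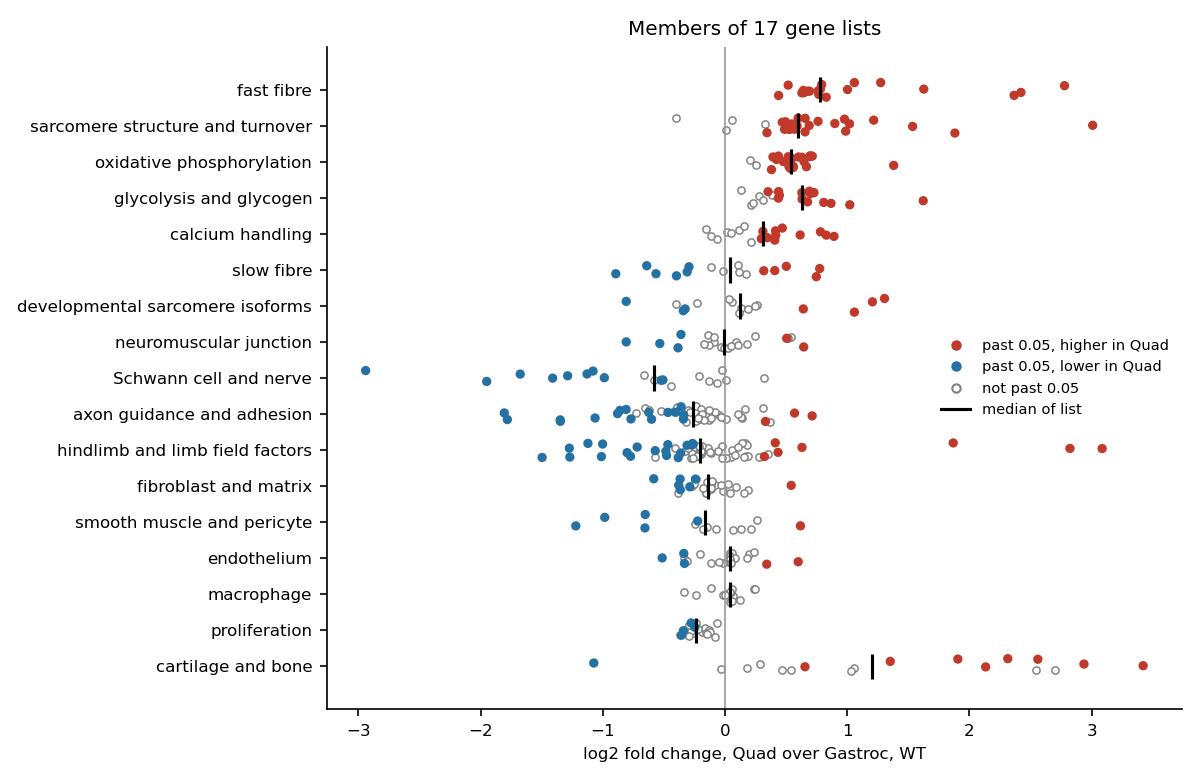
Log2 fold change of Quad over Gastroc in WT (x axis) of each measured member of 17 lists (rows). Red points passed the test and were higher in Quad, blue points passed and were lower in Quad, open points did not pass, and black bars are list medians, which lie at 0.78 for fast fibre genes and -0.58 for Schwann cell and nerve genes.

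Some of the clearest differences lay outside these lists. Eef1a2, the translation elongation factor that takes over from Eef1a1 in mature muscle and neurons, had 140.0 CPM in the lowest, 198 in the median and 243 in the highest Quad library, against 12.8, 31.5 and 37.4 CPM in Gastroc. Quad and Gastroc were apart (log2 change 2.78 ± 0.21, adjusted p = 7.70e-07). Rpl3l, the muscle form of a ribosomal protein, ranged over 49.8 to 91.2 CPM in Quad (median 60.3) and 9.04 to 23.5 CPM in Gastroc (median 11.1) (log2 change 2.27 ± 0.22, adjusted p = 8.68e-06). Reads of Rpl3l, Rpl39l (2.35 ± 0.19) and Eef1a2 could be shared with their close copies. Mapt, the microtubule protein tau, lay between 12.6 and 22.3 CPM in Quad (median 18.2) and between 2.68 and 4.42 CPM in Gastroc (median 3.12), with all Quad values higher (log2 change 2.36 ± 0.17, adjusted p = 5.06e-07). Clic5, an intracellular chloride channel protein (1.79 ± 0.09), and Steap4, a metalloreductase (1.11 ± 0.07), had the smallest and the fourth smallest p-values among genes higher in Quad. Cnksr1, Igsf21, Tmem125 and Tmem52 were also among the 15 largest changes upward, between 2.23 and 2.73.

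Cxcl9, a chemokine induced by interferon gamma, had 1.22 CPM in the lowest, 1.89 in the median and 3.00 in the highest Quad library, against 10.2, 11.7 and 14.4 CPM in Gastroc. All Quad values were below all Gastroc values (log2 change -2.58 ± 0.17, adjusted p = 2.90e-07), while 0 macrophage genes passed with edgeR (above). Nova1, a neuronal splicing factor (-1.60 ± 0.13), Gria4, a glutamate receptor subunit (-2.01 ± 0.18), and Tenm1, a teneurin of axon targeting (-1.84 ± 0.26), were lower in Quad without overlap. Clic6, Rgs17, Atp8b4, Zcchc16 and Tmem132b completed the 15 largest downward changes, between -2.48 and -1.84.

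The other muscles of the series put these levels in context, as a description with counts scaled over genes in all 4 tables. In TA, a lower leg muscle on the front of the shin, Hoxd9 had a median of 12.1 CPM, against 2.54 in Quad and 13.1 in Gastroc on this scale, and Hoxa11 had 18.9 in TA, against 2.58 in Quad and 11.8 in Gastroc. For both of these Hox genes the median of TA was closer to Gastroc, as it was for Hoxc6 (1.89 in TA, 6.67 in Quad and 2.56 in Gastroc). Other Hox genes differed. For each HoxA gene from Hoxa2 to Hoxa9 TA was closer to Quad, as for Hoxa5 (6.76 in TA, 6.26 in Quad and 2.50 in Gastroc). Hoxd8 was also closer to Quad, with 7.63 in TA, 5.97 in Quad and 16.8 in Gastroc. For Lmx1b TA had 14 CPM, against 6.69 in Quad and 2.08 in Gastroc, and for Emx2 TA had 7.33, against 5.86 in Quad and 0.681 in Gastroc. For Emx2 and for Lmx1b the median of TA was above both Quad and Gastroc, and closer to Quad. Alx4 was at 4.38 CPM in TA, against 15.9 in Quad and 1.63 in Gastroc. Myh4 had 118 CPM in TA and 385 in Dia, against 83.1 in Quad and 17.5 in Gastroc, so Gastroc was the lowest of the 4.

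The muscle difference was then repeated in the KO libraries. Myh3 counts in KO were 3929.8 to 5585 CPM in Quad (median 4741) and 4245 to 5473 CPM in Gastroc (median 4812), so they do not set the KO libraries apart from WT, and the labels do not say what the delta allele lacks. In KO, 1348 of 14741 genes passed (9.14%), with 851 higher in Quad (5.77%) and 497 lower (3.37%). Of 2061 genes past the test in WT and tested in KO, 1053 (51.1%) also passed in KO, which is 78.7% of the 1338 KO calls among shared genes. None passed in opposite directions, and 2051 of the 2061 had the same sign (10 did not). Over the 14524 genes tested in both, Pearson's r of the log2 changes was 0.88, a description across genes that are not independent.

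By gene, Alx4 had log2 changes of 3.09 in WT and 2.85 in KO, Hoxd9 of -2.41 in WT and -2.28 in KO, Pvalb of 2.78 in WT and 2.78 in KO, and Nrn1 of -2.94 in WT and -3.78 in KO. By list, 16 of 19 fast fibre genes and 21 of 24 oxidative phosphorylation genes were higher in KO Quad with 0 lower, and 10 of 19 nerve and Schwann cell genes were lower with 0 higher. Over all genes, calls were fewer in KO (5.77% higher and 3.37% lower in Quad, against 8.35% and 5.77% in WT). Fast fibre genes (19 higher in WT) and oxidative phosphorylation genes (22 higher in WT) also had fewer calls in KO. So did glycolysis and glycogen genes (11 of 21 higher in KO, against 15 of 21 in WT). Nerve and Schwann cell genes had 10 lower in both. Further lists with fewer calls in KO were as follows. Adipocyte genes had 1 of 11 higher in KO, against 7 of 15 in WT. Circadian genes had 1 of 18 higher in KO, against 4 of 18 in WT, and immediate early genes 4 of 25 in KO, against 8 of 25 in WT. Of 20 proliferation genes 0 were lower in KO, against 4 in WT. The difference between the genotypes was not tested for a list. The 24 reported Hox genes past the test in WT all had the same sign in KO. A test of the difference between the WT and the KO change called 0 of 15220 genes with edgeR (0.0%) and 0 with DESeq2, and 100 (0.657%) had an unadjusted p under 0.05. Uniform p-values would put 5% of the genes (761) there, so the p-values of this test ran high, and 0 calls do not show that the changes are alike. The smallest unadjusted p belonged to Myl2, with 0.75 in WT and -0.25 in KO (unadjusted p = 2.05e-04, adjusted p = 1.00), and the next to Gdf6, with -2.19 in WT and -0.99 in KO (unadjusted p = 4.52e-04). Ankrd2 had 3.01 in WT and 1.54 in KO (unadjusted p = 0.0296). None of these differences passed.

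**Figure D5:**
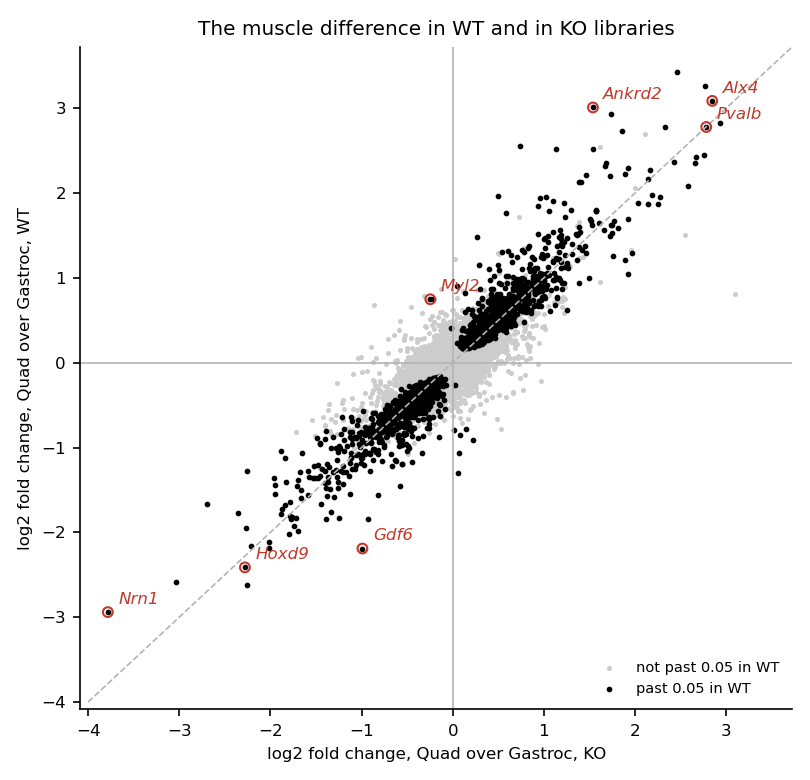
Log2 fold change of Quad over Gastroc in WT (y axis) against the same in KO (x axis), 1 point per gene, with genes past the test in WT in black and equal change on the dashed line. Alx4, Hoxd9 and Pvalb lie close to the line, and Myl2, Gdf6, Ankrd2 and Nrn1 lie off it.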

How the data were processed

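RNA-seq was done on Quad, Gastroc, TA and Dia of WT and KO newborn mice, with 6 libraries per group. The deposited tables hold counts per gene, which per the file headers are alignments that overlap a gene's exons, with both mates of a pair counted once. They also hold the exonic base pairs per gene, per the file headers, which give lengths only. The authors left out of each table genes under 10 counts and some over 50000, per the deposited flag sheets. The genome build is mm10, and Picard is named, per the submitters' processing notes. The aligner and whether counting used strand are not given in the sources used here. The 96 rlog and FPKM columns were not used. Count columns are numbered 0 to 5 and labels 1 to 6, with nothing to tie them, so libraries are named here by column.

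Counts of genes in both tables were filtered (filterByExpr), scaled by TMM factors and tested with the quasi-likelihood test of edgeR 4.0.16 in R 4.3.3, with Benjamini-Hochberg adjustment and a threshold of 0.05. No covariate was used. The steps were tested on simulated data. CPM values are TMM-scaled, per 1000000 counts of the genes in both tables that passed the filter. Exceptions are genes in 1 table, given per 1000000 counts of that table with no TMM factor, and the levels over all 4 muscles. The WT and KO changes were compared with an interaction term over 24 libraries. DESeq2 1.42.0 and limma 3.58.1 served as alternatives, beside other scalings, no filter, wider fits and leaving out libraries. Depth over the genes of each table was 12188785 to 20235751 counts in Quad (median 17646333) and 13448718 to 21986527 counts in Gastroc (median 15903108).

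Genes named are the 15 largest changes each way among genes past the threshold with a mean of at least 1 CPM in a muscle and no overlap, the 8 smallest p-values each way, up to 6 members per list by p, Myh3, every measured fibre, Hox and limb factor gene (except 1 that is not reported here), and up to 5 genes per muscle present in 1 table only. Predicted genes were passed over. The comparison, gene lists and named-gene rule were chosen with earlier results of these data known.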

Additional observations from a re-analysis of the deposited data

Results flagged for a closer look

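Of 548 groups of 6 values tested with Dixon's ratio at its 95% critical value, 40 (7.30%) held a library far from the other 5. Chance flags about 1 in 20 groups. All values are CPM.

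Y-linked and X-inactivation transcripts set 1 library of each muscle apart. Xist was at 0.697 in WT Quad column 0, against 619 to 754 in the other Quad libraries, and at 0.0951 in WT Gastroc column 1, against 635 to 796 in the other Gastroc libraries. Ddx3y was at 85.9 in WT Quad column 0 and at 74.0 in WT Gastroc column 1, with at most 0.105 in the rest.

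WT Quad column 4 was high for the smooth muscle genes Actg2 (10.3), Lmod1 (4.94) and Myh11 (42.1), and for Lpl (648), Mcm6 (66.0) and Peg10 (259), and low for Eya4 (39.6). WT Quad column 1 was low for Aldh1a2 (16.3) and Myl3 (93.2) and high for the clock gene Bhlhe41 (17.1). WT Quad column 5 was high for Chrng (106) and Hoxb5 (2.46) and low for Osr2 (26.0). WT Quad column 3 was low for Cox7a1 (44.0) and high for Gadd45a (31.3) and Sim1 (2.65), and WT Quad column 0 was high for Hoxb2 (2.09) and Pcdh7 (43.7).

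WT Gastroc column 3 was high for the cartilage genes Col9a2 (41.8), Col9a3 (34.8) and Ucma (4.17), where the other 5 Gastroc libraries reached 23.8, 11.3 and 0.827. It was also high for Ebf3 (151), Hoxa10 (37.2) and Perp (2.09). WT Gastroc column 4 was low for Aldh1a2 (27.0), Hotair (1.64) and Nr2f1 (5.25). WT Gastroc column 1 was low for Actn1 (55.3), Myh11 (46.6) and Shox2 (16.4) and high for Rpl3l (23.5). WT Gastroc column 2 was low for Flt1 (30.3), Tnnt1 (550.0) and mt-Nd4 (2620.0) and high for Ankrd2 (25.9), and WT Gastroc column 5 was high for Hic1 (54.1).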

How the results depend on the processing

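The count of genes past the test in WT was 2068 and stayed within 1.5 times of it under every alternative run: 2074 with RLE factors, 2061 with upper-quartile factors, 2058 with no filter, 2489 with DESeq2, 2929 with limma voom, 2162 with all 24 WT libraries and 1630 with all 48 in 1 fit. Leaving out 1 library gave 1609 to 2122, and 1420 of the 2068 genes passed in all 12 such fits. 2 pairs of libraries were left out after the data were seen, with 1642 genes without the libraries with Y-linked counts and 1842 without WT Quad column 1 and WT Gastroc column 4. Of 216 named genes past the test, 160 passed under every alternative in which they were tested, 14 lost the call in at least 1 fit without 1 library, 54 lost it under at least 1 other alternative, and 0 changed direction. The cause was not tested. The share of calls higher in Quad was 59.1%, and 53.5% to 67.7% over the alternatives. No paired analysis was possible because the count columns carry the numbers 0 to 5 and the labels 1 to 6, with nothing to tie one to the other. Fits over all 4 muscles hold only genes in all 4 tables, so Hoxa11 and Hoxc11 were not tested in them. Genes near 1 CPM rest on few counts and limit what can be seen at this depth.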

Other observations

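Adipocyte and lipid storage genes had 7 of 15 higher in Quad (46.7%, against 8.35% of all genes) and 0 lower, with a summed level of 2756 to 3492 CPM in Quad (median 3019) and 1740.4 to 2452 CPM in Gastroc (median 2179), so the ranges did not overlap. With all 48 libraries in 1 fit 3 were higher. Pnpla2, the lipase that opens triglyceride stores, had a log2 change of 1.08 ± 0.09, adjusted p = 1.90e-06. Its groups were apart, but its adjusted p was 0.0665 when all 48 libraries shared 1 fit. Plin4, a lipid droplet coat protein, had 1.01 ± 0.18, adjusted p = 0.00121, and Fabp4, a fatty acid carrier of fat cells and endothelium, had 0.60 ± 0.12, adjusted p = 0.00314, both without overlap. None of these 3 passed in KO. Muscle fibres use several of these genes as well, and the part of fibres and of fat cells was not tested.

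Among 18 imprinted growth genes 5 were higher in Quad (27.8%, against 8.35% of all genes) and 3 lower (16.7%, against 5.77%). The noncoding RNAs Meg3 (0.39 ± 0.07), Rian (0.43 ± 0.07) and Mirg (0.60 ± 0.09), which are neighbours in one imprinted region, were higher without overlap, and Peg10, a gene of retroviral origin, was lower (-0.52 ± 0.09). Meg3 is abundant and ranged over 11988 to 14562 CPM in Quad (median 13404) and 9080.4 to 11027 CPM in Gastroc (median 10255). Rian, Mirg and Peg10 also passed in KO, and Meg3 did not. In the clock list 4 of 18 genes (22.2%, against 8.35% of all genes) were higher in Quad and 0 lower. There were 2 higher without the 2 libraries with Y-linked counts and 0 with all 48 libraries in 1 fit. Arntl (0.63 ± 0.14) and Bhlhe41 (0.86 ± 0.21) were among the 4, with overlapping groups. Neither passed in KO, and with all 48 libraries in 1 fit the adjusted p was 0.108 for Arntl and 0.0539 for Bhlhe41, which was at 0.0531 without the 2 libraries with Y-linked counts. Of 18 myogenic progenitor genes 15 did not pass (16.7% passed, near the 14.1% of all genes). Myf5, a factor of muscle precursors, was lower (-0.45 ± 0.11) and so was Heyl, a target of Notch (-0.33 ± 0.08). Without WT Gastroc column 3 there were 4 lower genes on this list, and without the 2 libraries with Y-linked counts 1. With all 48 libraries in 1 fit Heyl had an adjusted p of 0.222 and Myf5 of 0.0781, and Myf5 had 0.0555 without the 2 libraries with Y-linked counts. Sdc4, a satellite cell surface protein, was higher without overlap (0.44 ± 0.08).

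Of 15 differentiation and fusion genes 5 were higher (33.3%, against 8.35% of all genes) and 2 lower (13.3%, against 5.77%). The count of lower genes was 3 without WT Gastroc column 3 and 1 without any one of WT Gastroc column 0, 1 or 2 or WT Quad column 2. Of 20 stress and atrophy genes 5 were higher (25.0%, against 8.35% of all genes) and 0 lower. Of 21 endothelial genes 2 were higher (9.52%, near the 8.35% of all genes) and 3 lower (14.3%, against 5.77% of all genes). Of 18 tendon genes 2 were higher (11.1%, near that share) and 0 lower, while 1 was higher and 2 lower without the 2 libraries with Y-linked counts. Without WT Gastroc column 1 alone 2 tendon genes were lower, and 1 was higher without any one of WT Gastroc column 5 or WT Quad column 0, 1 or 5. The summed levels of these 4 lists overlapped. Of 6 mitochondrially encoded genes 2 were higher (33.3%, against 8.35% of all genes) and 0 lower. That count was 4 without WT Quad column 2, 1 without any one of WT Gastroc column 2, 3 or 4 or WT Quad column 0, 1 or 5, and 0 without the pair of WT Quad column 1 and WT Gastroc column 4.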
